A study of Mus musculus with 4 samples.

Results

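The collagen and basement membrane genes of cultured mouse forelimbs were followed across control medium and medium with cyclopamine. The rule for membership uses gene names, and the set was proposed with earlier results of these data known. Members were the collagen chain genes other than Col2a1, Col9a1, Col9a3 and Col11a1, the laminin chain genes other than Lamb3, and Nid1, Nid2, Hspg2, Agrn, Fras1, Frem2, Fn1, Sparc, Fbn1, Fbn2, Fbln1, Fbln2, Tnc and Vcan. The table of 17568 genes held 63 such genes, of which 39 encode collagen chains and 10 encode laminin chains. Wild-type Swiss Webster forelimbs at E10.25, at 31 to 34 somites, were cultured in control medium (2 libraries) or with cyclopamine (2 libraries), an alkaloid that blocks the Hedgehog signal carrier Smoothened. The sources used here do not state dose, vehicle or culture time. Libraries are called biological replicates by the submitters, with no statement of how many embryos each pools. The p-values therefore rest on the spread between these libraries, which limma shares in part across genes. Levels are in CPM, read counts scaled by the authors to a common effective library size, from the SOLiD short-read platform.

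Basement membranes are thin sheets that underlie epithelia and surround vessels. Laminin trimers of an alpha, a beta and a gamma chain and a network of collagen IV form their layers, and nidogens, perlecan and agrin link or decorate them. In the limb bud such a sheet separates the ectoderm from the mesenchyme. Fibrillar collagens, fibronectin, fibrillins, tenascin C and versican make up the looser matrix between mesenchymal cells, in which cartilage and connective tissue later form.

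The libraries held between 9779589 and 13555492 gene-assigned reads, and the 63 genes took 0.674% and 0.731% of the reads in controls and 0.626% and 0.814% in cyclopamine. Gli1, a direct target of the Hedgehog pathway, measured 56.2 and 56.7 CPM in controls and 8.05 and 4.70 CPM in cyclopamine, as the labels imply. Tbx5, a forelimb factor, measured from 193 to 226 CPM in all 4 libraries, so the labelled tissue carried its marker. Counts differed between every pair of libraries by more than sampling noise (chi-square over its degrees of freedom at least 8.06).

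No collagen, laminin or other member passed the test. The smallest p-values belonged to Col1a1 and Lamb2, higher in cyclopamine, and to Lama1, lower, each by a little over 0.5 on the log2 scale. Of the 63 genes, 54 reached a mean of 1 CPM and were tested with limma over all 13568 genes of that level. At an adjusted p of 0.05 limma called 0 of the 54, against 0.28% of all genes tested, and the smallest adjusted p of a member was 0.329. On recovered reads edgeR's quasi-likelihood method called 0 members (0.295% of all genes) and DESeq2 called 0 (0.383%). The authors' deposited table marks 0 of the 63 at a false discovery rate of 0.05 (0.455% of all genes), with a smallest rate of 0.239. At an unadjusted p under 0.05 limma had 10 members, or 18.5% of the 54 against 5.82% of all genes. Of these, 6 were higher in cyclopamine (background 3.04%) and 4 lower (2.78%). The same count was 9 in edgeR (6.01%) and 8 in DESeq2 (3.85%). Members called stayed at 0 with scaling to the plain total (0.147% of all genes), with pseudocounts of 0.1 and 1 (0.258% each), without the filter on low values (0.0114%) and without the intensity trend (0.0%). A fit with the replicate number as a block did call members and stands with the other effects of processing. Leaving out control 1 gave 1 member (0.582% of all genes), control 2 gave 0 (0.316%), cyclopamine 1 gave 3 (0.898%) and cyclopamine 2 gave 0 (0.621%). The groups did not overlap for 22 of the 54 (40.7%, against 32.6% of all genes), with 10 higher (background 16.8%) and 12 lower (15.8%) in cyclopamine. The median log2 fold change over the 54 was 0.05, against 0.0045 over all genes tested. For 34 members the log2 fold change was smaller than 0.25 in size, and the standard errors over members ran from 0.15 to 0.44.

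**Figure D1:**
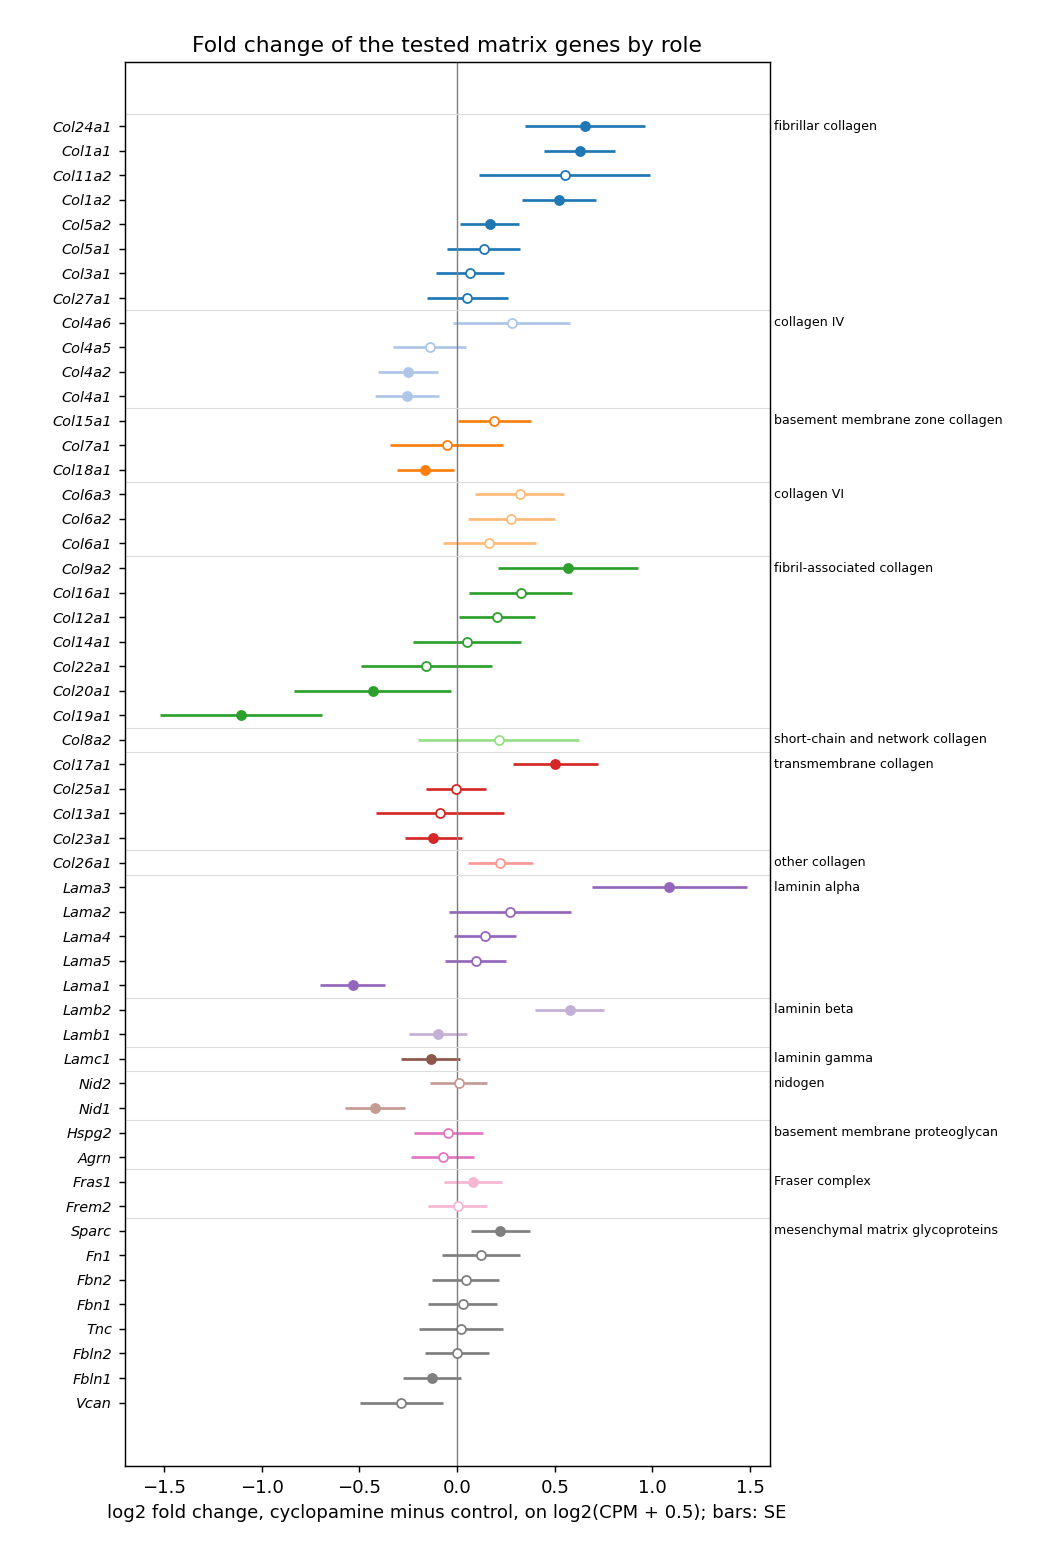
Log2 fold change of 53 of the 54 tested matrix genes (x axis, cyclopamine minus control on log2(CPM + 0.5), bars are SE, 2 libraries a group), ordered by role. Filled points mark genes whose groups do not overlap. All 8 tested fibrillar collagen members lie above 0, while Lama1, Nid1, Col4a1 and Col4a2 lie below it.

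The cyclopamine libraries stood apart from each other in these genes. Cyclopamine 2 was the highest of the 4 libraries for 31 of the 54 genes (57.4%, against 24.7% of all genes tested), and cyclopamine 1 was the lowest for 26 (48.1%, against 23.4%). Measured from the mean of the 4 libraries on the log2 scale, the members' median was -0.06 for control 1 and 0.0046 for control 2. It was -0.14 for cyclopamine 1 and 0.18 for cyclopamine 2. The medians over all genes tested lay between 0.0001 and 0.0082. The median fold change of the members was therefore 0.25 without cyclopamine 1 and -0.13 without cyclopamine 2, opposite in sign. Matrix genes are long, with a median of 8.11 kb of merged exons against 4.54 kb over the tested genes that have a length. Over the 5654 tested genes of more than 5 kb the library medians were -0.02, 0.04, -0.04 and 0.02 in the same order. The part of length in the members' deviations was not tested.

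**Figure D2:**
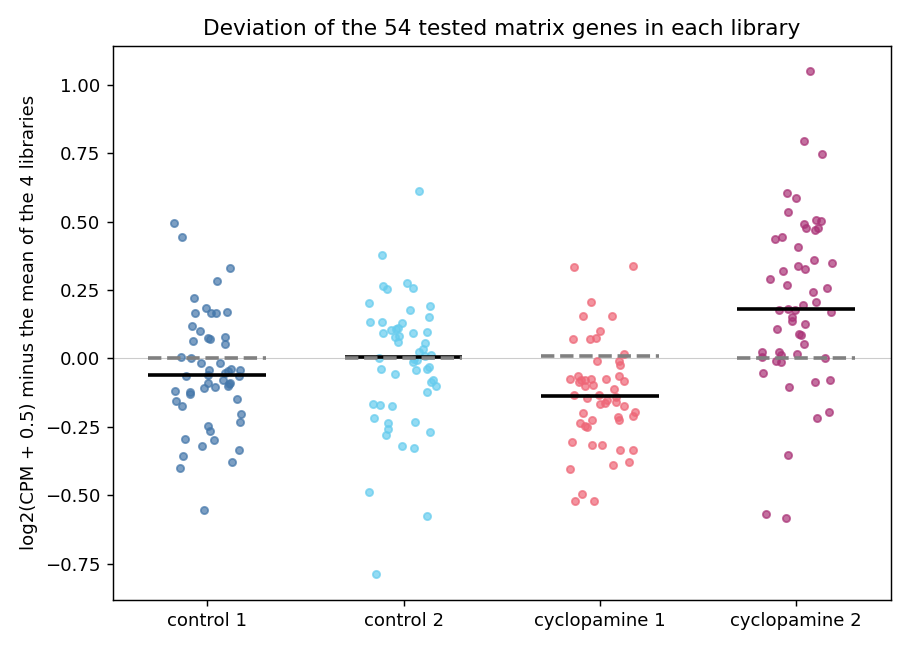
Deviation of each of the 54 tested matrix genes from its mean over the 4 libraries (y axis, log2(CPM + 0.5)), by library, with points spread sideways for legibility. Solid bars are medians of these genes and dashed bars medians of all genes tested; 43 of the 54 genes lie above 0 in cyclopamine 2 and 10 in cyclopamine 1.

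Fibrillar collagens form the rope-like fibrils of connective tissue, and type I is a trimer of the Col1a1 and Col1a2 chains. Among members, all 8 tested of the 9 fibrillar genes had a positive log2 fold change (median 0.35), against 51.0% of all genes tested. The groups did not overlap for 4 of the 8 (32.6% of all genes), and cyclopamine 2 was highest for all 8 (24.7%). The rule leaves out the fibrillar genes Col2a1, at 0.41 (SE 0.15), and Col11a1, at -0.24 (SE 0.16). Col11a1 measured 48.9 and 46.7 CPM in controls and 40.0 and 41.0 CPM in cyclopamine, so the shared direction holds for members only. Col1a1 measured 158 and 110 CPM in controls and 182 and 228 CPM in cyclopamine. Both cyclopamine libraries lay above both controls, and the controls were farther from each other than control 1 was from cyclopamine 1. Its means were 134 ± 33.9 CPM (SD, n = 2) and 205 ± 32.4 CPM (SD, n = 2), a log2 difference of 0.63 with an SE of 0.18 (limma, adjusted p = 0.329). Col1a1 passed without control 1 (adjusted p = 0.0391) and without cyclopamine 1 (0.0149), the 2 libraries nearest each other for this gene, and its log2 difference was 0.37 without control 2.

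Col1a2 measured 388 and 390 CPM in controls and 463 and 675 CPM in cyclopamine. The controls were nearly equal, and cyclopamine 2 was far above cyclopamine 1. The log2 difference was 0.52 with an SE of 0.19 (limma, adjusted p = 0.612), and it was 0.25 without cyclopamine 2. The Col1a2 gene lies on chromosome 6 from 4504814 to 4541544 and Col1a1 on chromosome 11 from 94936224 to 94953042, both on the plus strand of mm10. A stretch before the Col1a2 start that RefSeq gives is shown as that of the most abundant gene among the 6 higher ones, at chr6:4505370-4505492 on the plus strand of GRCm38.p6. It is the part of the 250 bases before that start which no GENCODE exon covers, within the GENCODE gene, and capitals mark GC boxes, the letters GGGCGG.

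Col1a2: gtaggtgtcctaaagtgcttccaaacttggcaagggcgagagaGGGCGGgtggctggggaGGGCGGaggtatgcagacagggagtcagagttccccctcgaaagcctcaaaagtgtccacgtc

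Of the other fibrillar genes, Col3a1, whose product forms homotrimers in soft connective tissue, was nearly level. It measured 510 and 579 CPM in controls and 524 and 617 CPM in cyclopamine, a log2 fold change of 0.07 (SE 0.18). The groups overlapped. Col5a1 and Col5a2 encode type V chains, which start fibrils of type I. Col5a1 measured 74.2 and 93.4 CPM against 75.3 and 111 CPM. Col5a2 measured 205 and 204 CPM against 215 and 245 CPM, without overlap but with a log2 fold change of only 0.17 (SE 0.15). Col24a1, a minor fibrillar chain, measured 3.51 and 4.996 CPM in controls and 5.68 and 8.35 CPM in cyclopamine, a log2 difference of 0.66 with an SE of 0.31 (limma, adjusted p = 0.856), and of 0.43 without control 1 or 0.40 without cyclopamine 2. Col11a2, a chain of the cartilage type XI collagen, measured 2.27, 2.50 and 1.97 CPM in control 1, control 2 and cyclopamine 1, and 6.73 CPM in cyclopamine 2. Its log2 fold change of 0.55 (SE 0.44) thus came from 1 library. Col27a1 measured 31.6 and 33.4 CPM in controls and 26.7 and 42.5 CPM in cyclopamine, with the cyclopamine libraries on either side of the controls.

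**Figure D3:**
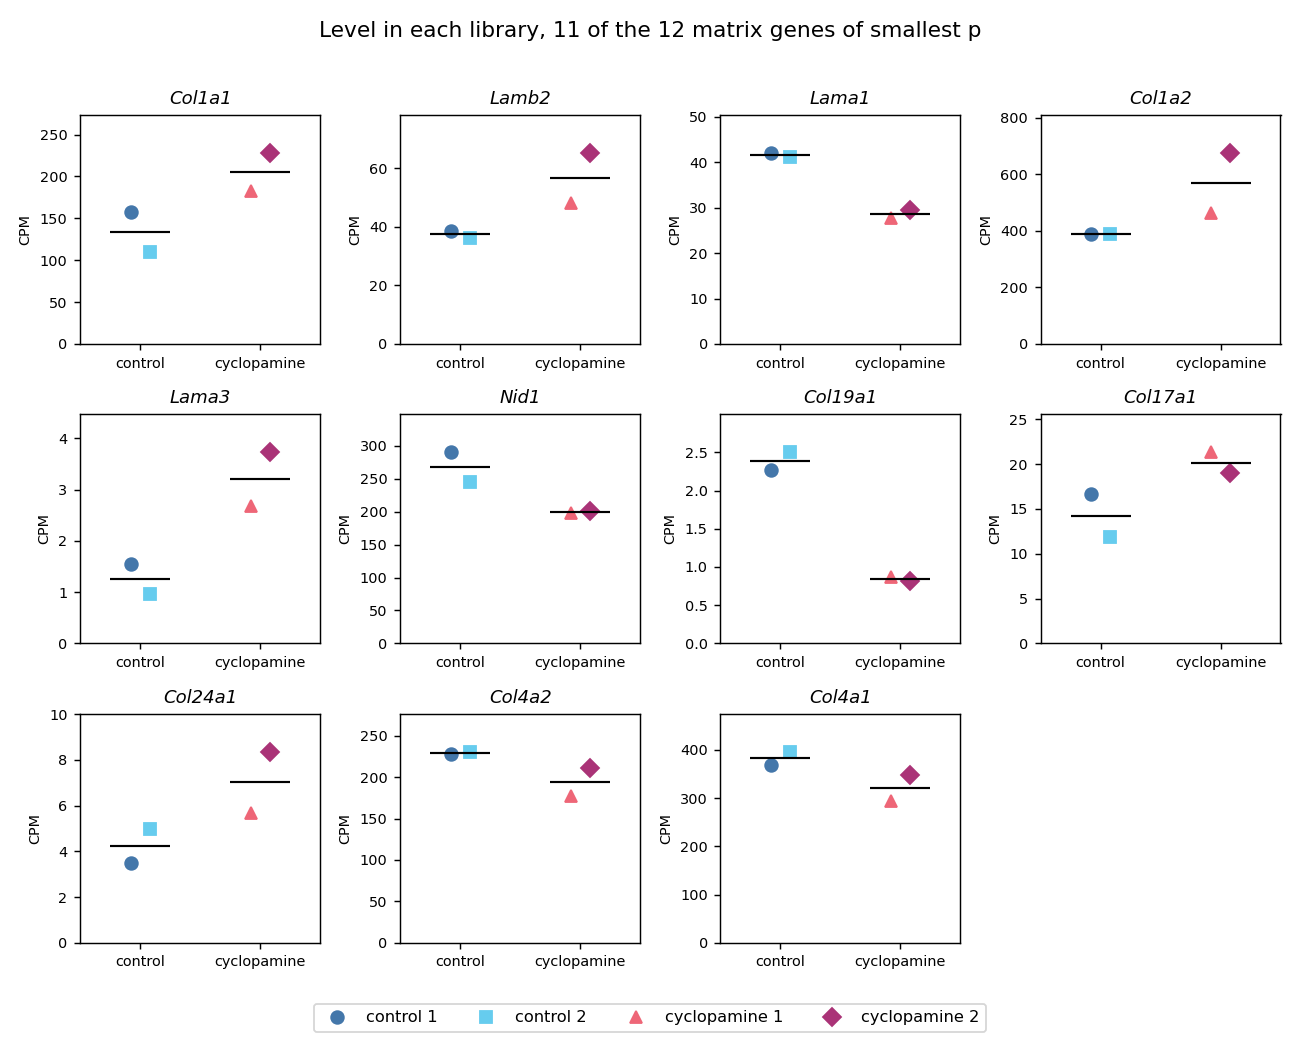
Level in each library (y axis, CPM from 0) of 11 of the 12 tested matrix genes with the smallest p, with a bar at each group mean of 2 libraries. In all 11 panels the cyclopamine points lie to one side of both controls, above in 6 and below in 5. Choosing genes by p in these same libraries favours such separation, which 32.6% of all genes tested show.

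Collagen IV, the network collagen of basement membranes, lay in the opposite direction in its main chains. Col4a1 measured 369 and 396 CPM in controls and 295 and 348 CPM in cyclopamine, a log2 difference of -0.26 with an SE of 0.16 (limma, adjusted p = 0.977). Col4a2 measured 228 and 230 CPM in controls and 177 and 211 CPM in cyclopamine, a log2 difference of -0.25 with an SE of 0.15 (limma, adjusted p = 0.973). The groups did not overlap for either chain, and neither passed. Without cyclopamine 1 the values were -0.14 for Col4a1 and -0.12 for Col4a2. The chains form 1 trimer and their genes lie head to head on chromosome 8, Col4a1 from 11198423 to 11312826 on the minus strand and Col4a2 from 11312805 to 11449287 on the plus strand of mm10. The annotated starts overlap by 22 bases, and with strand handling not given in the sources used here, reads from that stretch cannot be told apart. The shared stretch, at chr8:11312805-11312826 in RefSeq's GRCm38.p6 and on the plus strand, is shown as the point where the 2 transcripts begin, and it holds 16 G or C bases, with a GC box in capitals.

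Col4a1 and Col4a2 shared start: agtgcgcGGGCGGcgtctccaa

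Col4a5 and Col4a6, a second head-to-head pair on the X chromosome, were lower in level. Col4a5 measured 27.9 and 23.7 CPM in controls and 22.1 and 24.6 CPM in cyclopamine. Col4a6 measured 4.75 and 5.22 CPM against 4.89 and 7.70 CPM. Both overlapped between groups. Col4a3 and Col4a4, chains known from the kidney glomerulus, had at most 3 and 7 reads in a library and were not tested.

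The collagens that attach to basement membranes were close to level. Col18a1, which gives rise to the fragment endostatin, measured 165 and 147 CPM in controls and 140 and 139 CPM in cyclopamine, a log2 fold change of -0.16 (SE 0.15). Col15a1 measured 35.1 and 48.1 CPM in controls and 42.0 and 52.6 CPM in cyclopamine. Col7a1, the anchoring fibril collagen of skin, measured 6.91 and 7.64 CPM against 5.36 and 9.07 CPM. Col18a1 did not overlap between groups, and the other genes did.

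Collagen VI makes beaded filaments around cells. Cyclopamine 2 was highest for each of its 3 tested chains, as it was for 57.4% of all tested members. The order of the other libraries differed from chain to chain. Col6a1 measured 27.9 and 22.5 CPM in controls and 20.9 and 37.8 CPM in cyclopamine. Col6a2 measured 25.8 and 21.2 CPM against 22.2 and 36.5 CPM, and Col6a3 17.1 and 22.6 CPM against 19.8 and 30.9 CPM. The groups overlapped for all 3, and the class median was 0.63 without cyclopamine 1 and -0.03 without cyclopamine 2.

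Fibril-associated collagens sit on the surface of fibrils, and the 7 tested spread widely. Col19a1, a minor chain known from muscle and neurons, had the most negative log2 fold change of the tested members, -1.11 with an SE of 0.41 (limma, adjusted p = 0.654). It measured 2.27 and 2.50 CPM in controls and 0.868 and 0.810 CPM in cyclopamine. The groups were well apart, on 10 to 34 reads a library. Col9a2 measured 1.86 and 2.28 CPM against 2.84 and 3.81 CPM, and Col20a1 1.96 and 2.13 CPM against 1.58 and 1.22 CPM. Col12a1, Col14a1, Col16a1 and Col22a1 overlapped between groups, with log2 fold changes from -0.16 to 0.33.

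Among transmembrane collagens, Col17a1, the hemidesmosome collagen of keratinocytes, was higher in cyclopamine. It measured 16.6 and 11.8 CPM in controls and 21.3 and 19.0 CPM in cyclopamine, a log2 difference of 0.50 with an SE of 0.22 (limma, adjusted p = 0.804), and of 0.27 without control 2. The 11 surface ectoderm markers summed to 471 and 352 CPM in controls and 521 and 374 CPM in cyclopamine, with 0 past the test. Control 2 was lowest and cyclopamine 1 highest both for the sum and for Col17a1. Control 1 lay above cyclopamine 2 for the sum and below it for Col17a1, so the groups overlapped only for the sum. The part of ectoderm content in the difference was not tested. Col23a1 (113 and 113 against 98.2 and 110 CPM) and Col25a1 (54.7 and 54.6 against 57.5 and 51.6 CPM) were within 0.13 of level on the log2 scale. Col13a1 and Col26a1, the latter no membrane protein, overlapped between groups with log2 fold changes of -0.09 and 0.22.

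Laminin alpha chains set which receptors a laminin binds. Lama1, the alpha chain of the earliest embryonic laminin, was lower in cyclopamine. It measured 42.0 and 41.1 CPM in controls and 27.6 and 29.6 CPM in cyclopamine. Within each group the libraries lay close together, and the groups did not overlap. Its means were 41.6 ± 0.602 CPM (SD, n = 2) and 28.6 ± 1.39 CPM (SD, n = 2), a log2 difference of -0.53 with an SE of 0.17 (limma, adjusted p = 0.430). It stayed between -0.58 and -0.48 when each library was left out, and passed in none of those fits. The gene lies on chromosome 17 from 67697259 to 67822647, on the plus strand.

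The alpha chains that partly take over later did not share this direction. Lama5, the alpha chain of most mature epithelial basement membranes, measured 85.02 and 84.1 CPM in controls and 81.6 and 100.2 CPM in cyclopamine. Lama4, a vessel and mesenchyme chain, measured 109 and 118 CPM against 111 and 141 CPM. Both overlapped between groups. Lama2, the muscle chain, measured 16.6 and 23.5 CPM in controls and 15.0 and 38.1 CPM in cyclopamine, with the cyclopamine libraries at both ends. Its log2 fold change of 0.27 (SE 0.31) became 0.93 without cyclopamine 1 (limma adjusted p = 0.0466) and -0.39 without cyclopamine 2. Lama3, the epithelial alpha chain of hemidesmosomes, had the largest positive log2 fold change of the tested members, 1.09 with an SE of 0.40 (limma, adjusted p = 0.616). It measured 1.55 and 0.955 CPM in controls and 2.68 and 3.73 CPM in cyclopamine, without overlap, on 13 to 46 reads a library. Its log2 fold change was 0.90 with a pseudocount of 1 and 1.31 with 0.1.

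The beta chains differed in direction. Lamb1, the widespread embryonic beta chain, measured 224 and 216 CPM in controls and 201 and 211 CPM in cyclopamine, a log2 fold change of -0.10 (SE 0.15). Lamb2, known from nerve-muscle synapses and the kidney filter, measured 38.5 and 36.4 CPM in controls and 48.1 and 65.2 CPM in cyclopamine. All Lamb2 values in cyclopamine lay above the controls, with a log2 difference of 0.58 with an SE of 0.18 (limma, adjusted p = 0.399). Without cyclopamine 1 it passed (0.79, adjusted p = 0.0498), and without cyclopamine 2 it was 0.36. Lamb2 has the second smallest p of the members, so the stretch before its start that no annotated exon covers is shown, at chr9:108479612-108479735 on the plus strand, from RefSeq on GRCm38.p6. It has no capitals because it holds none of the 4 motifs searched, which are spelled out with the Nid1 stretch.

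Lamb2: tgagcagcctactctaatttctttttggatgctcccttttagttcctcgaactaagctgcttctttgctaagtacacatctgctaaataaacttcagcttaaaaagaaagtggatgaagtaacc

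Gamma chains complete the trimer. Lamc1, the gamma chain of most laminins, measured 182 and 186 CPM in controls and 157 and 179 CPM in cyclopamine, a log2 fold change of -0.14 (SE 0.15). Lamc3, found in neural and other tissues, lay under the level for testing, with 16 and 13 reads in controls and 2 and 4 in cyclopamine.

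Nid1 and Nid2 encode nidogens, which bridge laminin and collagen IV. Nid1 measured 290 and 246 CPM in controls and 197 and 201 CPM in cyclopamine, and Nid2 measured 156 and 159 CPM against 149 and 168 CPM. The cyclopamine libraries agreed closely for Nid1, and the nearest control was above both. Means for Nid1 were 268 ± 31.2 CPM (SD, n = 2) and 199 ± 2.92 CPM (SD, n = 2), a log2 difference of -0.42 with an SE of 0.15 (limma, adjusted p = 0.623), against 0.0082 (SE 0.15) for Nid2. Nid1 lies on chromosome 13 from 13437551 to 13512269, on the plus strand. The 199 bases before its first annotated exon, chr13:13437352-13437550 in RefSeq's GRCm38.p6, are shown because Nid1 has the smallest p among lower members with a promoter entry. Capitals mark a CCAAT box, read here on the other strand as ATTGG, and a GC box.

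Nid1: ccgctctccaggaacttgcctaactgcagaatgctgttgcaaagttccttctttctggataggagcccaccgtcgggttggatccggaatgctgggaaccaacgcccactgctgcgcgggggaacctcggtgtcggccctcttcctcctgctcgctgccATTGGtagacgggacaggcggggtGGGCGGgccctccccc

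RefSeq promoter windows, from 250 bases before to 50 after a start, were at hand for 46 of the 63 genes (51 windows). The letters GACCACCCA, the core bound by GLI factors, were searched on both strands, and 0 of the 51 member windows held them, against 0.253% of all 32851 windows. GGGCGG or its complement, the GC box, was in 34 of the 51 windows, against 35.7% of all. CCAAT or its complement was in 15 of the 51, against 37.4% of all, and TATAAA or its complement was in 7, against 13.6%.

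The basement membrane proteoglycans and the Fraser complex genes among the members were close to level. Hspg2, which encodes perlecan, measured 181 and 232 CPM in controls and 173 and 229 CPM in cyclopamine. Agrn, which encodes agrin, measured 226 and 258 CPM against 205 and 257 CPM. In both, the second library of each group was the higher. Fras1 and Frem2 encode proteins that hold embryonic ectoderm to the mesenchyme together with Frem1. Fras1 measured 84.5, 84.6, 85.5 and 93.7 CPM in control 1, control 2, cyclopamine 1 and cyclopamine 2, and Frem2 94.3, 110, 96.2 and 108 CPM. Their log2 fold changes were 0.08 (SE 0.15) and 0.003 (SE 0.15).

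Frem1, the third protein of that complex and not a member by the rule, fell. It measured 126 and 171 CPM in controls and 65.3 and 83.5 CPM in cyclopamine, a log2 difference of -0.98 with an SE of 0.18 (limma, adjusted p = 0.029). Both cyclopamine libraries lay well below both controls. The call ended without control 2 (-0.77, adjusted p = 0.148), without the filter on low values (0.306), without the intensity trend (0.458) and with scaling to the plain total (0.0729). The difference between the fold changes of Frem1 and those of Fras1 or Frem2 was not tested.

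The mesenchymal matrix glycoproteins held the most abundant members, and none passed. Fn1, which encodes fibronectin, measured 738 and 799 CPM in controls and 714 and 981 CPM in cyclopamine, a log2 fold change of 0.12 (SE 0.20), which was -0.10 without cyclopamine 2. Vcan, which encodes the hyaluronan-binding versican, measured 733 and 1018.5 CPM in controls and 620 and 812 CPM in cyclopamine (-0.28, SE 0.21). The Vcan value was -0.05 without control 2, -0.09 without cyclopamine 1, -0.52 without control 1 and -0.48 without cyclopamine 2. Sparc, a collagen-binding matricellular protein gene, measured 193 and 177 CPM against 202 and 230.4 CPM (0.22, SE 0.15, limma adjusted p = 0.984). Sparc did not overlap between groups, with 0.13 without cyclopamine 2, and Fn1 and Vcan did. Fbln1, a fibulin gene, measured 182 and 158 CPM in controls and 154 and 156 CPM in cyclopamine, just without overlap (-0.13, SE 0.15, and -0.03 without control 1). Fbn1, Fbn2, Fbln2 and Tnc had log2 fold changes between -0.0007 and 0.05. In Tnc the libraries followed the replicate number, with 69.5 and 68.6 CPM in the first of each group and 103 and 108 CPM in the second. Both second libraries lay above both first libraries for 22 of the 54 members (40.7%, against 21.4% of all genes tested).

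Per length, fibronectin was the most abundant transcript of the 63 genes. Levels divided by the kb of merged exons ranged over the 63 genes from a mean of 0.0089 CPM per kb for Col6a4 to 69.1 for Fn1, with 23 genes above 10 and 20 below 1. After Fn1 came Col3a1 (56.8), Vcan (55.0), Sparc (53.0), Col4a1 (47.1), Col1a2 (38.5), Fbln1 (37.1) and Nid1 (33.6 CPM per kb). These 8 genes made up 49.2% of the summed CPM per kb of the members. Neighbours among these 8 overlapped in their library values. Fn1 ran from 61.1 to 83.9 CPM per kb over the 4 libraries, Col3a1 from 51.9 to 62.9, Vcan from 42.9 to 70.4 and Sparc from 46.7 to 60.8. Merged exons count every annotated isoform, so genes with long minor isoforms are set too low on this scale.

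**Figure D4:**
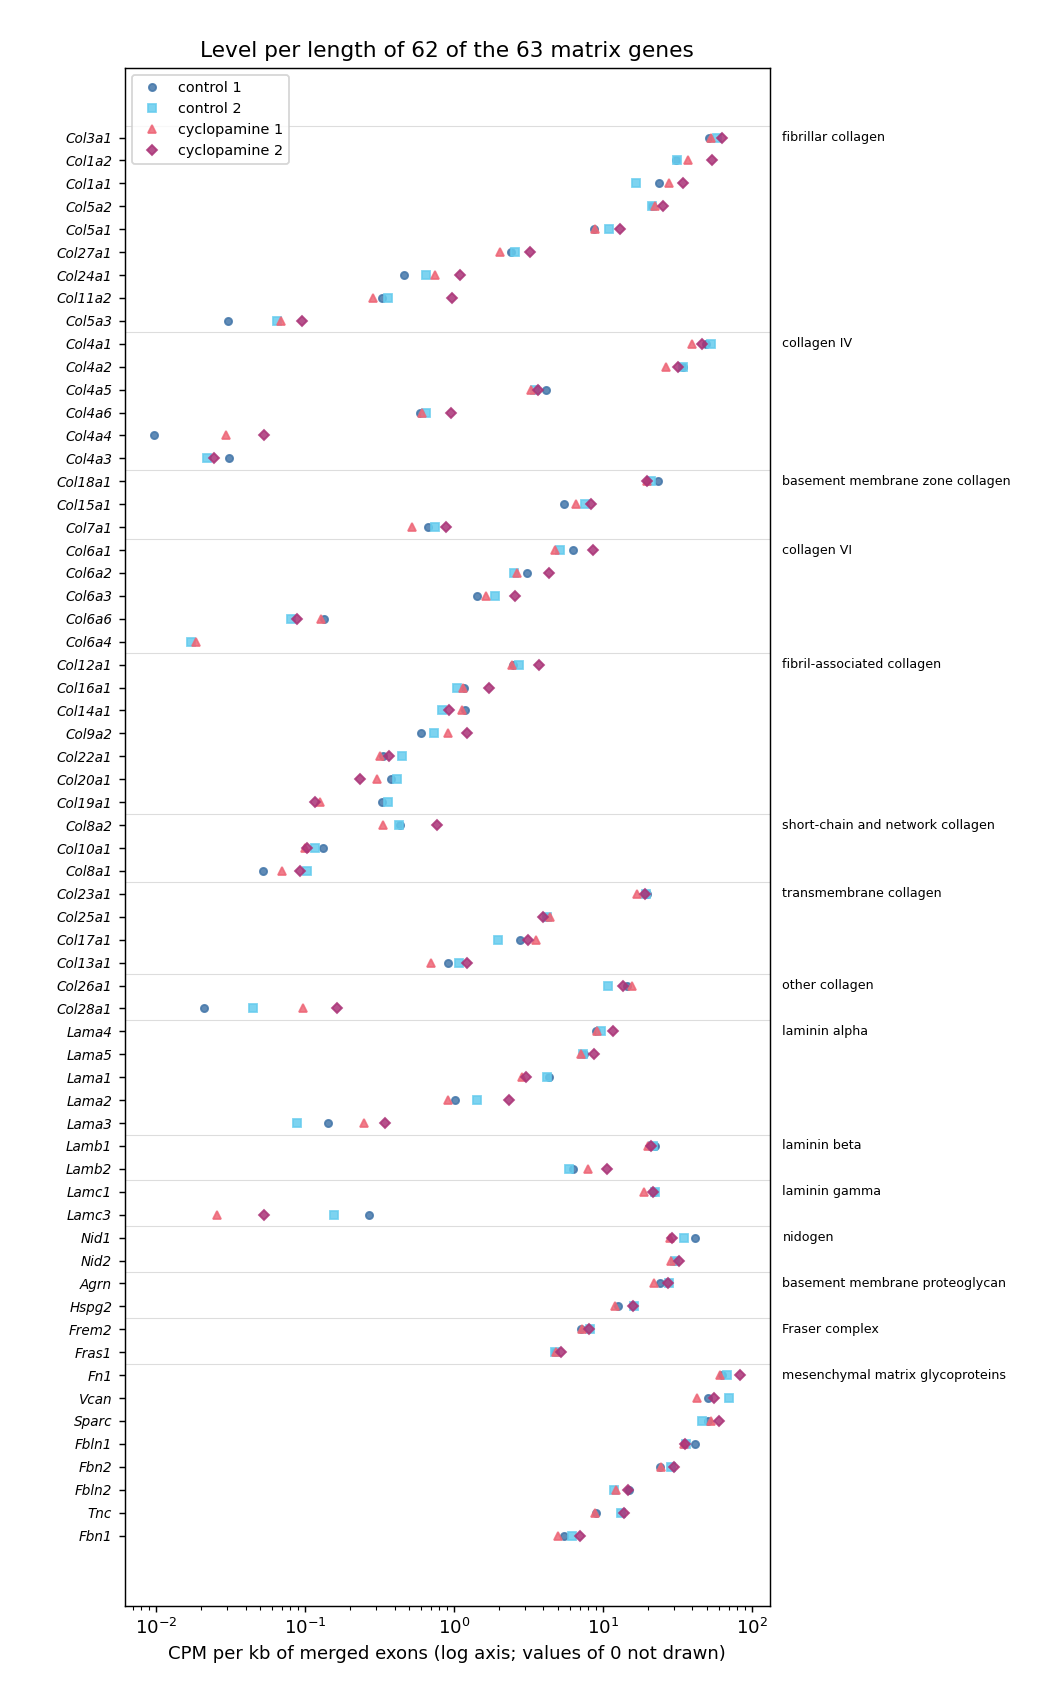
Level per length in each library (x axis, CPM per kb of merged exons, log scale) of 62 of the 63 matrix genes, by role and then by mean level. Of the genes shown, 23 have a mean above 10 CPM per kb and 20 a mean below 1.

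Ratios of CPM per kb within a library show which partner chains kept step. Col4a1 over Col4a2 stayed between 1.43 and 1.52 in the 4 libraries, although their levels differed. Lamb1 over Lamc1, partners in most laminins, stayed between 0.968 and 1.06. Col1a2 over Col1a1 was 1.30 and 1.87 in controls and 1.34 and 1.56 in cyclopamine, so it varied between controls as much as between groups.

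For 6 of the 13 ratios computed the groups did not overlap. The share for single genes tested, 32.6%, is no background for ratios, no share over gene pairs was computed, and some ratios share a gene. The direction of a ratio depends only on which partner is divided by the other. Lama1 over Lama5 was 0.581 and 0.575 in controls and 0.398 and 0.347 in cyclopamine. Lamb1 over Lamb2 was 3.57 and 3.65 in controls and 2.56 and 1.98 in cyclopamine. Nid1 over Nid2 was 1.39 and 1.15 in controls and 0.986 and 0.895 in cyclopamine. Col4a5 over Col4a6, Col6a1 over Col6a2 and Col3a1 over Col1a1 were also lower in both cyclopamine libraries. With 2 libraries against 2, an exact two-sided permutation test cannot go below 0.333, so no p is given for a ratio.

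**Figure D5:**
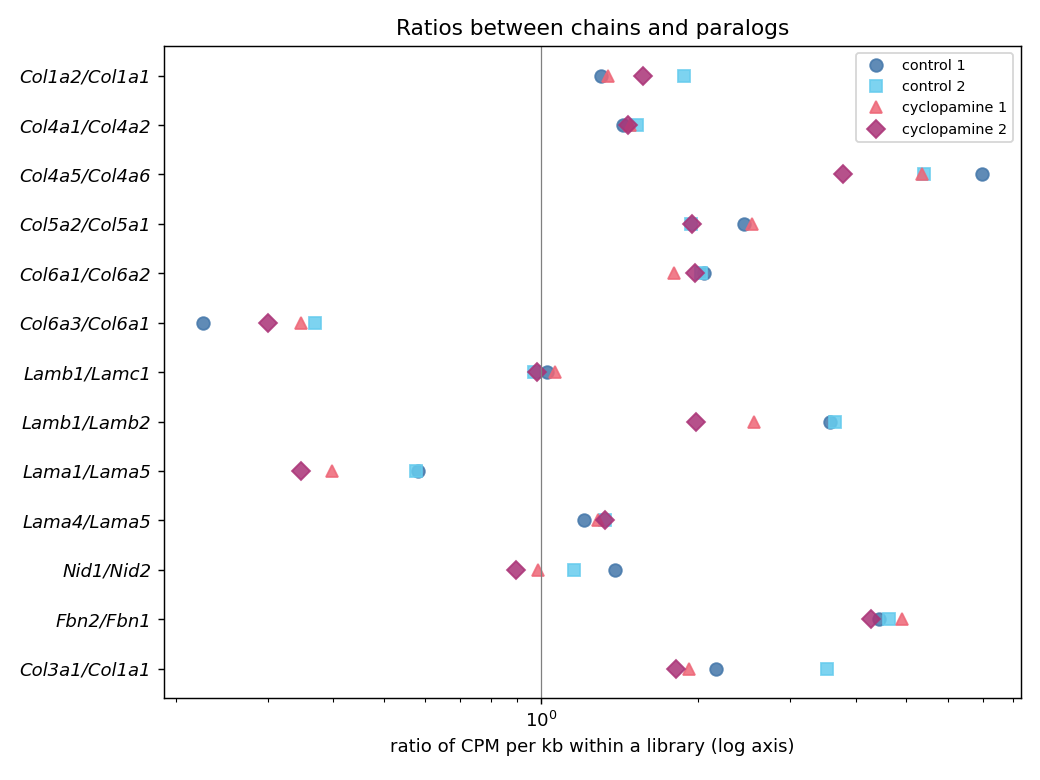
Ratio of CPM per kb between chains or paralogs within each library (x axis, log scale, grey line at 1) for 13 pairs. Points for Col4a1/Col4a2 and Lamb1/Lamc1 nearly coincide, whereas Lama1/Lama5, Lamb1/Lamb2 and Nid1/Nid2 lie lower in both cyclopamine libraries.

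The 9 genes under a mean of 1 CPM were Col4a3, Col4a4, Col5a3, Col6a4, Col6a6, Col8a1, Col10a1, Col28a1 and Lamc3, with at most 16 reads in a library. Col4a3 and Col6a4 had no more than 3 reads in any library, the floor of detection, which is 0.22 to 0.31 CPM. Col28a1 had 1 and 3 reads in controls and 6 and 10 in cyclopamine. Col10a1, a marker of hypertrophic cartilage, had 4 or 5 reads in every library. Floors cover counting error only, because reads were not collapsed to single molecules.

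Genes that process, cross-link, cut or bind matrix were mostly near level. Of 22 tested collagen processing enzymes and chaperones 0 passed, 13 being higher and 9 lower (median 0.05). The groups did not overlap for 7 higher genes (background 16.8%) and 0 lower ones (15.8%). The smallest p in that list belonged to Serpinh1, which encodes the collagen chaperone HSP47, at 555 and 372 CPM in controls and 567 and 598 CPM in cyclopamine, and to Lepre1, a prolyl hydroxylase gene (0.31, SE 0.18). Of 8 cross-linking enzymes 0 passed, with Loxl3 at 0.60 (SE 0.25) and Loxl1 at 0.56 (SE 0.28), and 3 higher and 0 lower did not overlap. Of 18 proteases and inhibitors 0 passed, and 5 higher and 4 lower did not overlap. Mmp11, a stromal metalloproteinase gene, measured 21.6 and 20.6 CPM in controls and 34.2 and 32.2 CPM in cyclopamine (0.65, SE 0.18, limma adjusted p = 0.289), and Adamts20, a versican-cutting protease gene, 15.2 and 15.4 CPM against 11.4 and 7.86 CPM.

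Receptors were close to level as well. Of 22 tested integrins and other matrix receptors 0 passed, with 14 higher and 8 lower. The groups did not overlap for 6 higher receptors (background 16.8%) and 3 lower ones (15.8%). Itga4, which binds fibronectin, measured 16.4 and 18.1 CPM in controls and 21.9 and 29.2 CPM in cyclopamine, and Itgb3, the partner of the alpha v chain, 10.1 and 7.93 CPM against 11.5 and 16.0 CPM. Of 32 other matrix genes tested 1 passed, Frem1, which was lower. The log2 fold change was positive for 23 of the 32 and negative for 9, with a median of 0.23. The groups did not overlap for 12 higher genes (background 16.8%) and 4 lower ones (15.8%). At an unadjusted p under 0.05 limma had 9 of the 32, against 5.82% of all genes. Of 12 genes of the TGF-beta and CTGF family 0 passed. Cyr61, which encodes a matricellular protein, measured 31.7 and 9.33 CPM in controls and 56.0 and 28.0 CPM in cyclopamine, and Tgfbi 84.5 and 73.2 CPM against 100.35 and 115 CPM.

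Markers of the cells that could supply these transcripts also differed between libraries. In bulk RNA, fewer cells of a type and less RNA per cell cannot be told apart. All 13 endothelial markers had a positive log2 fold change (median 0.27), 0 passed, and their summed level was 454 and 454 CPM in controls and 516 and 572 CPM in cyclopamine. Col4a1 and Col4a2 are expressed by vessels among other cells, and the part of vessel content in their values was not tested. The 9 limb mesenchyme markers summed to 1888 and 1897 CPM in controls and 1980 and 2284 CPM in cyclopamine, again with 0 passed. Of these markers 8 had a positive log2 fold change and 1 a negative one (median 0.27). The groups did not overlap for 6, all higher in cyclopamine (background 16.8%). Cyclopamine 2 was highest for the sum and for 5 of the 9, cyclopamine 1 for 3 and control 1 for 1. The sum is carried by its most abundant genes, Prrx1 (645 and 783 CPM in cyclopamine 1 and 2) and Pdgfra (375 and 547 CPM). The part of mesenchyme content in the fibrillar collagens was not tested.

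Of the neural tube and neuron markers, 10 of 11 were in the table. All 8 tested were lower in cyclopamine, and 7 of the 8 passed the test. The sum of the 10 was 49.4 and 84.3 CPM in controls and 11.4 and 13.8 CPM in cyclopamine. Neural crest and Schwann markers summed to 82.6 and 82.0 CPM against 60.1 and 66.7 CPM, with 0 past the test. Lama1, Col19a1 and Lamc3 were lower in the same libraries, and the part of neural tissue in them was not tested. The 8 erythroid markers summed to 1324.5 and 613.5 CPM in controls and 2163 and 1272 CPM in cyclopamine, with 0 past the test. Pericyte and smooth muscle markers summed to 169, 216, 168 and 242 CPM over the libraries in the order control 1, control 2, cyclopamine 1, cyclopamine 2, with 0 past the test. Most of that sum was Pdgfrb, which mesenchyme also expresses, at 151, 188, 149 and 207 CPM in that order. Muscle progenitor (48.8, 83.6, 73.0 and 85.4 CPM), cartilage (347, 294, 320 and 350 CPM), macrophage (24.4, 25.6, 18.2 and 28.0 CPM) and coelomic lining markers (32.4, 31.1, 31.1 and 31.7 CPM, same order) had 0 genes past the test.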

How the data were processed

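Gene expression was measured by SOLiD RNA-seq in 4 libraries, 2 control and 2 cyclopamine, grouped by their titles. The submitters' processing notes list, with no role or order, the build mm10 and the tools HTSeq 0.5.4p5, TopHat2 2.0.9, edgeR 3.4.2, SAMtools and Bowtie. Annotation and strand handling: not given in the sources used here. Deposited signal is CPM of an effective library size scaled by the authors. Every value is a whole multiple of 1 read (100% in each library, within 0.01 of a read; 0.0735 to 0.103 CPM per read), so whole reads were recovered for count tests. The authors' deposited table holds, for each gene, the log2 fold change and log2 mean level, then a raw p-value and its adjusted form, with no test named.

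The 13568 genes whose mean reached 1 CPM were fitted with limma 3.58.1 (R 4.3.3), using its intensity trend, no covariates and log2(CPM + 0.5), a scale that understates changes of low genes. Tests were two-sided, with Benjamini-Hochberg adjustment over those genes. In simulated data for this comparison, with 13441 genes fitted, 65% of 2-fold and 95% of 4-fold changes were recovered, with 6 false calls. The simulation gave every gene the same spread beyond counting noise and drew the libraries independently. Real genes differ in spread, so these shares need not hold for them. Alternatives were edgeR 4.0.16 and DESeq2 1.42.0 on recovered reads, other scaling, pseudocounts, filter, variance model, a replicate block and each library left out. Lengths are merged GENCODE vM21 exons, found for all 63 genes; exons of 19 overlap a gene on the opposite strand and those of 3 a gene on the same strand, so their values are uncertain. Lists were matched by symbol, 5 through RefSeq synonyms. Olig2 and Matn4 were not analysed here. Full values are given for 11 of the 12 members of smallest p (1 member is counted in the totals and not reported here), the 8 of highest CPM per kb and partner chains, and from each pathway list for genes past the threshold or else the 2 of smallest p. Frem1 and Lama2 were also followed through the alternatives because of their values. Members and lists were chosen with earlier results of these data known.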

Additional observations from a re-analysis of the deposited data

How the results depend on the processing

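With 2 libraries a group the design detects only large differences, and low genes rest on few reads. Limma called 38 genes in all. The count was 20 with scaling to the plain total, 2 with no filter on low values, 0 with no intensity trend (837 at an unadjusted p under 0.05), 351 (2.59%) with the replicate block, and 43 to 122 in fits that left out a library. It was 40 with edgeR, 52 with DESeq2, and 35 with either other pseudocount. Members called were 0 in these alternatives except for 5 with the replicate block (9.26% of those tested; Col1a1, Col1a2 and Lamb2 higher, Lama1 and Nid1 lower; adjusted p from 1.4e-05 for Col1a1 to 0.0249 for Lama1) and 0 to 3 without a library (1, Col1a1, without control 1, and 3, Col1a1, Lama2 and Lamb2, without cyclopamine 1). The labels do not say whether same-numbered libraries share a litter or day, and 2 pairs cannot settle a pairing. Deviations of same-numbered libraries correlated at 0.274 across genes, and chi-square over its degrees of freedom was 8.06 and 13.2 between them, against 14.9 and 15.0 within groups, a hint from the data and not the design. The members' median log2 fold change ran from -0.13 to 0.25 in fits without a library and from 0.049 to 0.058 in the other alternatives. Over fits without a library, genes that turned sign ran from -0.10 to 0.35 (Fn1) and from -0.39 to 0.93 (Lama2), both negative without cyclopamine 2, and from -0.053 to 0.18 (Col3a1), negative without control 1 (-0.025) or without cyclopamine 2. With 1 library left in an arm, that library is assumed to vary like the others.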
